A study of Mus musculus with 2 samples.

Results

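The genes described here are 6 microRNA (miRNA) genes of mouse gastrocnemius, the large calf muscle, out of 2202 counted in the series. They form a pair of paralogous clusters: Mir23a, Mir27a and Mir24-2 on chromosome 8, and Mir23b, Mir27b and Mir24-1 on chromosome 13. They were picked by gene symbol in the GENCODE M21 annotation, not by a cutoff on their counts, but with earlier results of these data known. All 6 averaged 10 counts or more over the libraries, the minimum used below. The muscle came from adult female B6CASTF1/J mice, an F1 hybrid of C57BL/6J and CAST/EiJ, aged 18 to 20 months, with no treatment named. Small RNA was sequenced as 2 libraries of 1 group, numbered as biological replicates 1 and 2. Both libraries carry 1 donor entry but separate tissue entries, so the labels do not settle whether different animals were used and the spread between the libraries may be technical.

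MiRNAs are short RNAs cut from a hairpin precursor, and they repress messenger RNAs that pair with their seed, bases 2 to 8 from the 5′ end. The miRNAs of each cluster are thought to be cut from a common primary transcript, one from each hairpin, so the clusters offer parallel sources of the same 3 miRNA families. In muscle, miR-23a is known to repress the atrophy ubiquitin ligases Trim63 (MuRF1) and Fbxo32 (MAFbx), miR-27 to repress the myogenic factor Pax3 and the growth inhibitor myostatin, and miR-24 to favour myoblast differentiation. The clusters are also known from endothelium, where miR-23 and miR-27 promote vessel sprouting.

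The mature sequences are shown first because they set which reads can be given to one cluster or the other. Each is written 5′ to 3′ with the seed in capitals, from the RefSeq table for GRCm38.p6, where all 6 hairpins and 11 member arms were found. MiR-23b-3p is named only.
miR-23a-3p (Mir23a): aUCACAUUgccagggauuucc
miR-27a-3p (Mir27a): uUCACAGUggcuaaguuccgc
miR-27b-3p (Mir27b): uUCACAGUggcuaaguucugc
miR-24-3p (Mir24-2 and Mir24-1): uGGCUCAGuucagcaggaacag
miR-24-2-5p (Mir24-2): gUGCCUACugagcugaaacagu
miR-24-1-5p (Mir24-1): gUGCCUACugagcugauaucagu

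Where both 3p arms could be compared, for Mir27 and Mir24, the paralogs were more alike in the 3p arm than in the 5p arm. MiR-27a-3p and miR-27b-3p share their first 18 of 21 bases and differ by 1 substitution, C19U, counted from the 5′ end with the miR-27a base first. MiR-24-3p is the same 22 bases from either locus, so a read of this arm cannot be assigned to Mir24-2 or Mir24-1. The 5p arms of the Mir24 genes share a seed and their first 16 bases, and first differ at base 17. The other 5p arms are less alike: those of Mir27a and Mir27b differ from base 3 onward at 8 of 22 positions, and those of Mir23a and Mir23b share a run of at most 10 bases. Over the whole hairpin, the longest run in common was 20 bases for Mir23a and Mir23b, 20 for Mir27a and Mir27b, and 28 for Mir24-2 and Mir24-1. No run longer than 13 bases was shared with any of the other 2200 miRNA hairpins. Between families, the seeds of miR-23 and miR-27 differ by 1 base, and the miR-24 seed differs from each of them at all 7 positions.

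Both clusters keep the order Mir23, Mir27, Mir24 on the plus strand, in GRCm38 (mm10) coordinates. On chromosome 8, Mir23a (ENSMUSG00000065611.1) lies at chr8:84208518-84208592, Mir27a (ENSMUSG00000065444.1) at chr8:84208672-84208758 and Mir24-2 (ENSMUSG00000065541.1) at chr8:84208815-84208921. This cluster spans 404 bases, with gaps of 79 and 56 bases between hairpins. Mir23a and Mir27a overlap no other annotated gene, and the end of Mir24-2 overlaps by 2 bases an exon of the long noncoding RNA gene Gm26532. On chromosome 13, Mir23b (ENSMUSG00000065599.2) lies at chr13:63300484-63300557, Mir27b (ENSMUSG00000065475.2) at chr13:63300712-63300784 and Mir24-1 (ENSMUSG00000105904.1) at chr13:63301208-63301275. This cluster spans 792 bases, with gaps of 154 and 423 bases. It lies within the aminopeptidase gene 2010111I01Rik on the same strand, Mir23b in an intron and Mir27b and Mir24-1 over an annotated exon, and within introns of Fancc on the other strand. Each Mir24 gene is also overlapped on the minus strand by an annotated miRNA gene, Mir3074-2 on chromosome 8 and Mir3074-1 on chromosome 13.

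**Figure D1:**
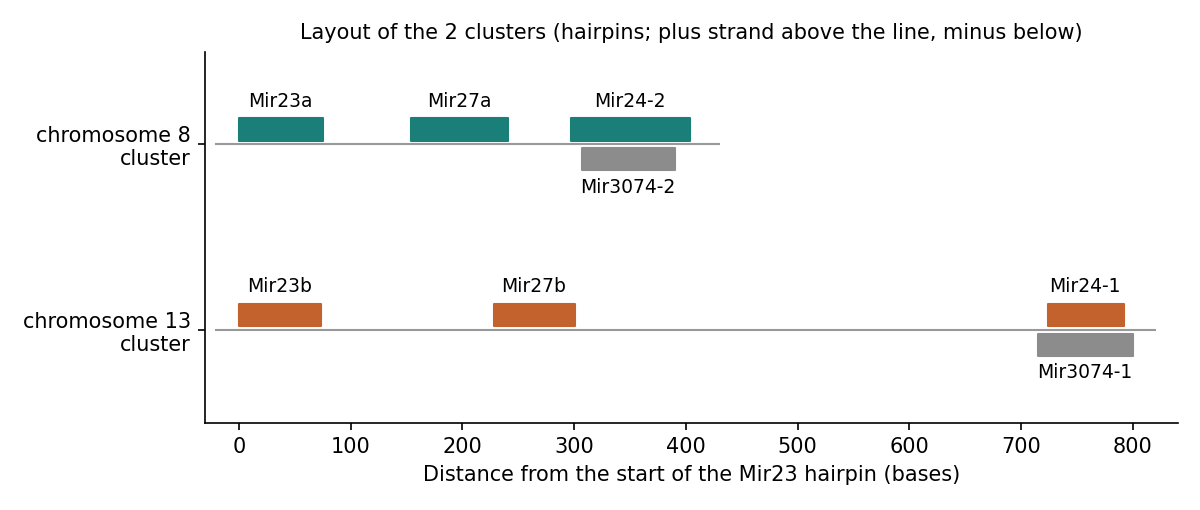
Positions of the miRNA hairpins in both clusters, drawn to scale as the distance in bases from the start of the Mir23 hairpin; bars above a line are plus strand genes and grey bars below it are minus strand genes. The chromosome 8 cluster spans 404 bases and the chromosome 13 cluster 792, and the widest gap, 423 bases, separates Mir27b from Mir24-1.

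The libraries differed in depth. Sense counts on miRNA genes summed to 865419 in replicate 1 and 2177048 in replicate 2, and levels are given per 1000000 of these sums (CPM), as mean ± SD over both libraries (n = 2). Reads that map to several places were tallied apart and enter no gene count. They numbered 5556809 in replicate 1 and 8516459 in replicate 2, or 6.42 and 3.91 per gene count. Where no read was counted, the depth allows a true value of up to 3 counts, equal to 3.47 CPM at the depth of replicate 1 and 1.38 CPM at that of replicate 2. All 6 striated muscle miRNA genes had counts above 0, though Mir133a-2 had only 2 in replicate 1 and 11 in replicate 2. The lists for endothelium, smooth muscle, blood and fibroblasts held counts as well, but not for every member. Endothelial Mir126b had 0 counts in both libraries, and fibroblast Mir199a-1 had 3 in replicate 1 and 0 in replicate 2. Intervals and limits cover counting error only, because no molecular identifiers are named and reads may be copies of 1 molecule.

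The 6 genes together held 8.68% ± 0.183 of gene counts, and these assigned counts were split nearly evenly between the loci. On average Mir23a made up 97.3% of the chromosome 8 sum and Mir23b 84.0% of the chromosome 13 sum, so the split mainly follows this pair. Reads that fit both loci enter neither sum, so the split does not settle how much miRNA each locus gives. The chromosome 8 cluster held 4.10% of replicate 1, with an exact Clopper-Pearson interval from 4.06 to 4.14, and 4.21% of replicate 2, from 4.18 to 4.23. The chromosome 13 cluster held 4.71%, from 4.67 to 4.76, and 4.35%, from 4.32 to 4.37. The chromosome 13 sum was higher in both libraries, and with library totals its values did not overlap those of the chromosome 8 sum. With other denominators the values overlapped across libraries. In the unstranded counts they were 5.39% ± 0.154 for chromosome 8 and 5.90% ± 0.604 for chromosome 13. Without the gene of highest mean CPM in the totals they were 4.90% ± 0.145 and 5.36% ± 0.562. The log2 ratio of chromosome 8 over chromosome 13 was -0.12 ± 0.11, a difference close to the spread between the libraries. In whole muscle, fewer cells of a type and less RNA per cell cannot be told apart in any of these levels.

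Mir23a and Mir23b made up most of these counts and stood at close levels. Mir23a had 34653 counts in replicate 1 and 88690 in replicate 2, which is 40042 and 40739 CPM. Mir23b had 34404 and 79176 counts, which is 39754 and 36368 CPM. Mir23a had the higher count of the pair in both libraries, but in replicate 1 its lead was within counting error. The exact interval of its share there, given below, includes equal shares. With library totals the values of the genes did not overlap across libraries. Without the gene of highest mean CPM in the totals they did, at 47709 ± 1704 CPM for Mir23a and 45039 ± 4983 CPM for Mir23b. Mir23a ranked 8 of 2202 genes by mean CPM and Mir23b ranked 9. Of the counts of the pair, Mir23a took 50.2% in replicate 1, where counting error alone gives 49.8 to 50.6 by the exact method, and 52.8% in replicate 2, where it gives 52.6 to 53.1. The log2 ratio of Mir23a over Mir23b was 0.01 in replicate 1 and 0.16 in replicate 2, a mean of 0.09 ± 0.11. The difference between these paralogs was thus smaller than the SD between libraries.

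Mir27 counts came mostly from the chromosome 13 locus. Mir27a had 746 counts in replicate 1 and 2433 in replicate 2, which is 862 and 1118 CPM. Mir27b had 6362 and 15349 counts, which is 7351 and 7050 CPM. Mir27b was 8.53-fold higher than Mir27a in replicate 1 (exact interval 7.90 to 9.21) and 6.31-fold higher in replicate 2 (6.04 to 6.59). Every Mir27b value lay far above every Mir27a value, and the mean log2 ratio of Mir27a over Mir27b, -2.87 ± 0.31, was many times its SD. Only a read that reaches base 19 of the 3p arm, or one from the 5p arm, tells these paralogs apart without a mismatch. How many reads of each gene went to the multimapping tally was not analysed here.

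Mir24 genes had the lowest counts of both clusters. Mir24-2 had 76 counts in replicate 1 and 462 in replicate 2, which is 87.8 CPM (exact interval 69.2 to 110) and 212 CPM (193 to 232). Mir24-1 had 26 and 120 counts, which is 30.0 CPM (19.6 to 44.0) and 55.1 CPM (45.7 to 65.9). Among assigned reads, Mir24-2 was the higher paralog in both libraries, by 2.92-fold in replicate 1 (1.85 to 4.76) and 3.85-fold in replicate 2 (3.14 to 4.75). The mean log2 ratio was 1.75 ± 0.28. Together these genes gave 0.134% of the counts of the 6 genes in replicate 1 and 0.313% in replicate 2. Because miR-24-3p is identical at both loci, the counts of the Mir24 genes are lower bounds, and neither the level of miR-24-3p nor its source can be read from them. Divided by hairpin length, which is 107 bases for Mir24-2 and 68 for Mir24-1, the log2 ratio fell to 1.09. That kept its direction but lay below 1.75 by more than the SD. The mature arms of both genes are 22 or 23 bases long, so counts need not follow hairpin length.

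**Figure D2:**
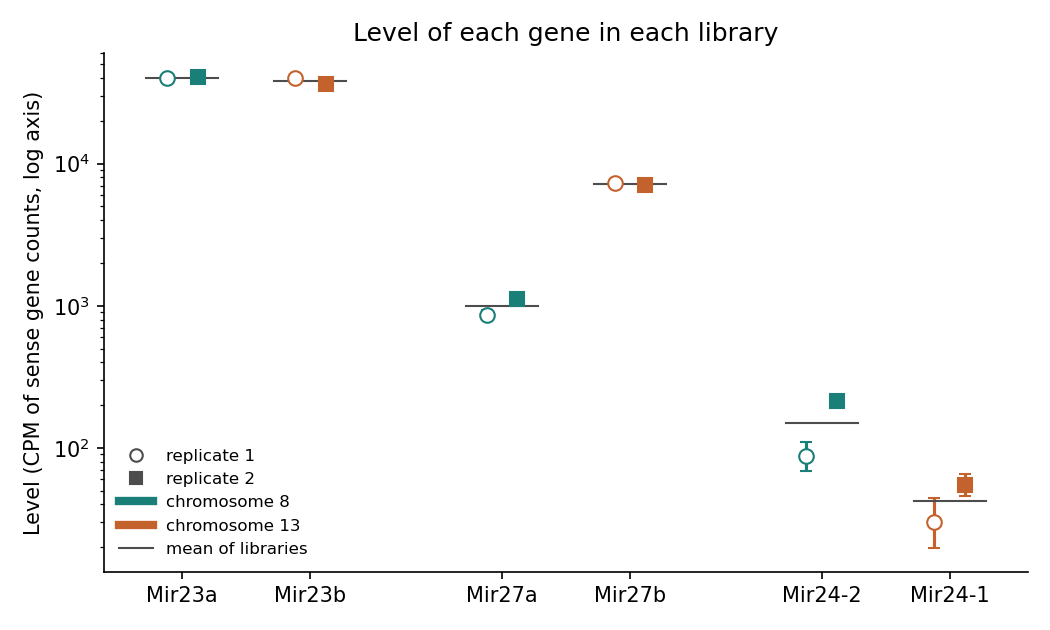
Level of each gene in each library, in CPM of sense gene counts on a log axis; open circles are replicate 1, filled squares replicate 2, bars exact Clopper-Pearson intervals of counting error (smaller than the marker where not visible) and short lines the mean. Mir23a and Mir23b stand near 40390 and 38061 CPM, Mir27b above Mir27a at 7201 against 990 CPM, and the Mir24 genes lowest at 150 and 42.6 CPM.

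The paralog ratios of the assigned counts differed along the clusters. The chromosome 8 copy was near parity for Mir23, lower for Mir27 and higher for Mir24 in each library. Each of these ratios describes only the reads that could be assigned to 1 locus. The Mir24 ratio is one of lower bounds and does not settle which locus gives more miR-24. Since both members of a pair were counted in the same library, library scaling cancels in these ratios. With 2 libraries, an exact permutation test that flips signs cannot give a two-sided p under 0.5, so the ratios were not tested over libraries. All 3 ratios lay further toward chromosome 8 in replicate 2. The ratio of ratios, replicate 2 over replicate 1, was 1.11 for Mir23 (exact conditional interval 1.09 to 1.13), 1.35 for Mir27 (1.24 to 1.48) and 1.32 for Mir24 (0.774 to 2.19). The Mir23 and Mir27 intervals leave out 1 and the Mir24 interval, which rests on the fewest counts, includes it. These intervals compare the libraries and say nothing of animals.

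**Figure D3:**
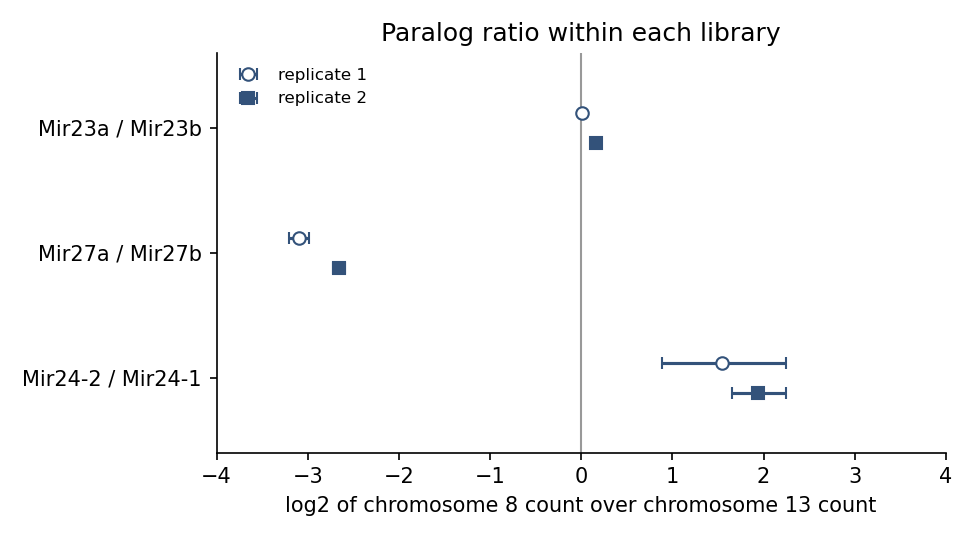
Log2 of the chromosome 8 count over the chromosome 13 count for each paralog pair in each library, with exact intervals of counting error; 0 marks equal counts. Mir23 lies at 0.01 and 0.16, Mir27 at -3.09 and -2.66, and Mir24 at 1.55 and 1.94.

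Within each cluster Mir23 had the most assigned counts, Mir27 fewer and Mir24 the fewest, by unequal steps. Mir23a exceeded Mir27a by 46.5-fold in replicate 1 and 36.5-fold in replicate 2, while Mir23b exceeded Mir27b by 5.41-fold and 5.16-fold. On the log2 scale these steps were 5.36 ± 0.25 on chromosome 8 and 2.40 ± 0.05 on chromosome 13. The first step was larger on chromosome 8 in both libraries, with no overlap. Mir27a exceeded Mir24-2 by 9.82-fold and 5.27-fold, and Mir27b exceeded Mir24-1 by 245-fold and 128-fold, steps that depend on how many miR-24 reads were assigned. Mir27b held 15.9% ± 0.439 of the counts of its cluster, and Mir27a held 2.38% ± 0.391 of the counts of its own. Mir23a held 97.3% ± 0.597 and Mir23b 84.0% ± 0.484.

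Unequal assigned counts of neighbouring hairpins were also present in other miRNA clusters of these libraries. The highest member exceeded the lowest by 456-fold in replicate 1 and 192-fold in replicate 2 on chromosome 8, and by 1323-fold and 660-fold on chromosome 13. The lowest member is a Mir24 gene, whose count is a lower bound, so these folds of assigned counts are not ranges of the miRNAs themselves. In the Mir99a, Mirlet7c-1 and Mir125b-2 cluster the same ratio was 303-fold and 325-fold, and between Mir143 and Mir145a it was 8.60-fold and 12.4-fold. In the Mir17 to Mir92a-1 cluster, where Mir19b-1 had 0 counts in both libraries and entered at 3 counts per library, it was at least 392-fold and at least 1053-fold. In replicate 1 the 1323-fold of the chromosome 13 cluster was the largest value printed here. The Mir17 to Mir92a-1 values are lower bounds only for counting error of assigned reads, not for the range of the miRNAs. In replicate 2 both Mir23 clusters lay between the narrowest and the widest of these ranges. In the other clusters too, reads that map to several places enter no gene count, and sequence that their members share with other hairpins was not analysed. Their folds are therefore folds of assigned counts as well. No difference between clusters was tested.

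The other strand held few reads at these loci. No antisense read was counted for Mir23a, Mir27a, Mir23b, Mir27b or Mir24-2. The antisense counts of Mir24-1 were 2 in replicate 1 and 9 in replicate 2, the same numbers that Mir3074-1 had as its sense counts (2.31 and 4.13 CPM). Mir3074-2 had 0 sense counts in both libraries, which allows up to 3 counts in each. In the unstranded count both Mir24 genes stood at 0, where a read that falls on a gene and on its opposite-strand neighbour is ambiguous, whereas the counts of the other 4 genes did not change. The Mir24 values therefore exist only in strand-specific counts.

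Between the libraries, Mir23a, Mir23b and Mir27b had ratios near 1 with library totals, and Mir24-2 differed most. The 305 genes that averaged 10 counts or more were each put to an exact conditional binomial test, two-sided and given both library totals, and p-values were adjusted over the whole set by Benjamini-Hochberg. A call needed both a ratio of 2 or more in either direction and an adjusted p below 0.05. The test compares these libraries and their counting error, not animals. Of the 6 genes, 1 was called, Mir24-2, against 103 of all tested genes (33.8%). In its direction, higher in replicate 2, 82 tested genes were called (26.9%), and in the other direction 21 (6.89%). The count of 1 in 6 is no more than this background. Without the ratio threshold all 6 genes passed, as did 207 of the 305 tested (67.9%), the largest adjusted p being 0.0106 for Mir23a by the exact test, which at these counts registers small differences.

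Mir24-2 had a ratio of replicate 2 over replicate 1 of 2.42 (1.89 to 3.12 by the exact method, adjusted p = 1.97e-14 by the exact binomial test). The call was lost with TMM factors, at a log2 ratio of 0.99, and with DESeq2 size factors, at 0.86. Mir24-1 lay on the same side, at a ratio of 1.83 (1.19 to 2.92), under the ratio threshold. Mir27a was 1.30-fold higher in replicate 2 (1.19 to 1.41). Mir23a had a ratio of 1.02 (1.00 to 1.03), Mir27b of 0.959 (0.931 to 0.988) and Mir23b of 0.915 (0.903 to 0.927). The median log2 ratio of the 6 genes was 0.20, beside 0.43 for all tested genes, and the median absolute log2 ratio was 0.25 beside 0.71. Which genes differed least depended on the scaling: with TMM factors Mir27a lay at 0.09, Mir27b at -0.34 and Mir23b at -0.41, and with DESeq2 size factors Mir27b lay at -0.48 and Mir23b at -0.55. The direction of Mir23a depended on it too, with a log2 ratio of 0.02 with library totals, -0.26 with TMM factors and -0.39 with DESeq2 size factors. Mir27a turned to -0.043 with DESeq2 size factors, and Mir23b and Mir27b turned to 0.45 and 0.52 when all mapped reads were the denominator.

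**Figure D4:**
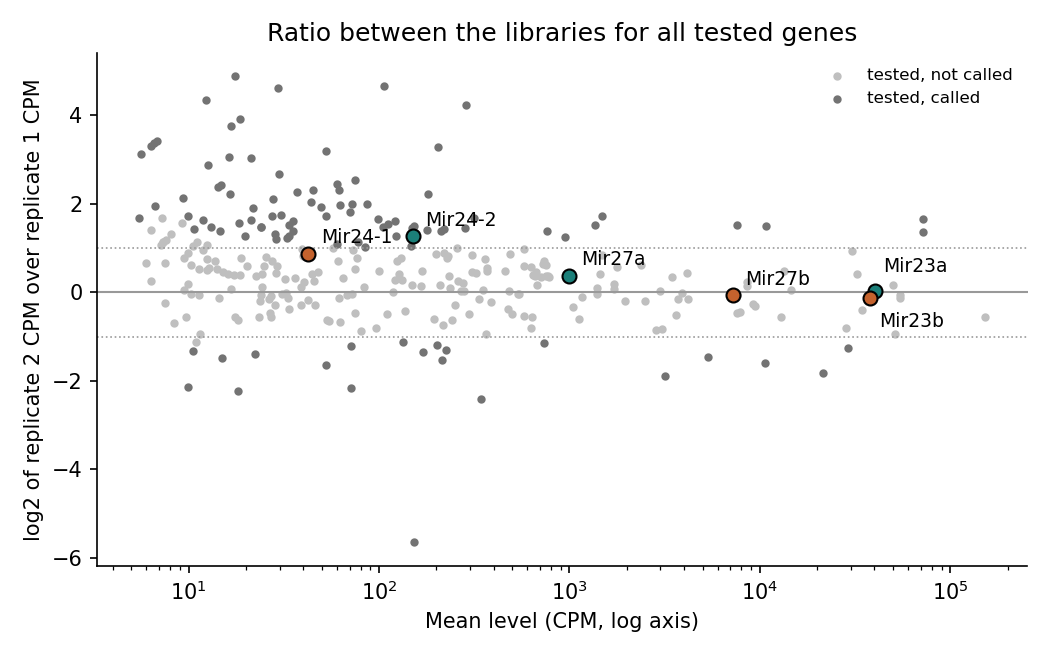
Log2 ratio of replicate 2 over replicate 1 against the mean level (CPM, log axis) for all 305 tested genes; dark grey points were called, light grey points were not, dotted lines mark a ratio of 2 in either direction, and coloured points are the 6 genes (green chromosome 8, orange chromosome 13). Mir23a, Mir23b and Mir27b lie within 0.13 of 0, and Mir24-2 is the only one of the 6 past the upper dotted line, at 1.27.

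Marker shares moved between the libraries as well. Striated muscle markers took 4.07% of gene counts in replicate 1 and 10.4% in replicate 2, nearly all of it from Mir206 (40388 and 103232 CPM). In assigned counts, Mir1a-1 and Mir1a-2 had log2 ratios of -0.21 and -0.74. Reads that fit both copies of Mir1a or of Mir133a enter no gene count, and the sequence these copies share was not analysed. The part of Mir206 is therefore a part of assigned counts only. The smooth muscle list held 7.54% and 3.80%. The endothelial list, which rests on Mir126a because Mir126b had 0 counts in both libraries, stood at 4.73% and 5.30%. The erythroid list stood at 0.0230% and 0.0316%, the leukocyte list at 0.362% and 0.408%, and the fibroblast list at 0.0582% and 0.134%. These sums hold members that went the other way. With library totals the leukocyte genes Mir142 and Mir223 were called lower in replicate 2 (ratios of 0.390 and 0.440), beside Mir155 at 1.48. The fibroblast gene Mir199a-2 was called lower too (0.398), beside Mir214 at 2.37. That call of Mir199a-2 rests on 13 counts in each library, with an exact interval from 0.170 to 0.931. The part of these marker lists in the ratios of Mir24-2 and Mir27a was not tested.

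Related vascular and muscle miRNAs give the setting of these values. Of 8 vascular miRNA genes, 7 were tested, of which Mir222 was called toward replicate 2, Mir145a toward replicate 1, and 5 did not meet the criteria. Their median log2 ratio was 0.11. Mir143 was called toward replicate 1 as well in the unstranded column, with TMM and DESeq2 size factors, and without the top gene in the totals. Mir222, an endothelial and smooth muscle miRNA, had 62 and 377 counts and a ratio of 2.42 (exact interval 1.84 to 3.22), a call lost with TMM and DESeq2 size factors. Mir126a, the defining endothelial miRNA, stood at 50123 ± 4023 CPM, and its ratio of 1.12 (1.11 to 1.13) was under the threshold. Of 12 miRNA genes linked to muscle mass or fibre type, 11 were tested, of which 4 were called toward replicate 2, 0 toward replicate 1, and 7 did not meet the criteria. The counts of both lists stand beside the 26.9% called toward replicate 2 and 6.89% called toward replicate 1 among all tested genes. Over the list the median log2 ratio was 0.46, beside 0.43 for all tested genes. The 4 were Mir206, Mir208b, Mir499 and Mir29b-1. With DESeq2 size factors 2 of them, Mir208b and Mir499, were called higher in replicate 2 and Mir1a-2 was called higher in replicate 1.

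The genes nearest to each member in level over both libraries were found by the distance between log2(CPM + 1) values, over 2 libraries. For Mir23a these were Mir126a (47279 and 52968 CPM, distance 0.45) and Mir99a (39241 and 29826 CPM, distance 0.45). For Mir23b they were Mir99a (distance 0.29) and Mirlet7b (distance 0.52). Mir27b lay nearest to Mirlet7f-2 (7766 and 7397 CPM, distance 0.11) and Mir151 (distance 0.30), and Mir27a to Mir652 (887 and 1136 CPM, distance 0.05) and Mir676 (distance 0.48). Mir24-2 lay nearest to Mir181d (79.7 and 217 CPM, distance 0.14) and Mir434 (distance 0.16), and Mir24-1 to Mir3068 (30.0 and 52.4 CPM, distance 0.07) and Mir326 (distance 0.12). No member was among the genes considered as neighbours. With 2 libraries such nearness describes levels only.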

How the data were processed

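MicroRNA-seq was counted in 2 gastrocnemius libraries of 1 group. The deposited values are raw read counts per miRNA gene, made by the authors on mm10 with GENCODE M21, per the deposited README; for the aligner, the counter and trimming, none is named (not given in the sources used here). The count columns have no header and were read from their values as unstranded, sense and antisense, and the sense column was used. Tallies of unmapped, multimapping (80.7% and 71.0% of reads), no-feature (1.67% and 2.73%) and ambiguous reads stayed out of library sizes. All 2202 identifiers matched the annotation. Intervals are at 95%. The exact binomial test was run on simulated Poisson counts. These hold counting error only, so the run does not check the test against wider spread or copied reads in these libraries. With 1 group, edgeR's quasi-likelihood test has no contrast, so edgeR 4.0.16 and DESeq2 1.42.0 (R 4.3.3) gave scaling factors only. Python 3.11.15, SciPy 1.17.1 and pandas 2.3.3 were used.

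Named genes were the 6 members, miRNA genes opposite them, the 2 nearest genes of each, and fixed vascular, muscle and cell type lists and comparison clusters. Members and lists were chosen with earlier results of these data known. Mir92-1, Mir18 and Mir142 are the annotation's symbols for listed Mir92a-1, Mir18a and Mir142a. Alternatives were other columns, denominators, scalings, filters, no ratio threshold, and each library left out.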

Additional observations from a re-analysis of the deposited data

Results flagged for a closer look

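Reads on the other strand of Mir24-1 exceeded the limit that a count of 0 allows in replicate 2. The antisense count of Mir24-1 was 9 in replicate 2, above 3 counts, and 2 in replicate 1. The minus strand gene Mir3074-1 held the same 2 and 9 counts as its sense counts.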

How the results depend on the processing

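No paired analysis was possible because the series holds 1 group. The mean paralog log2 ratios kept their sign under each alternative run for them. For Mir23 and Mir27 the unstranded and the sense plus antisense counts equal the sense counts, so these alternatives could not change the ratio. The Mir23 ratio has no settled sign in replicate 1, where its exact interval, -0.011 to 0.032, includes 0. Each library alone gave 0.01 to 0.16 for Mir23a over Mir23b, -3.09 to -2.66 for Mir27a over Mir27b and 1.55 to 1.94 for Mir24-2 over Mir24-1. Division by hairpin length, chosen after seeing the data, gave 1.09 for Mir24, below the main mean by more than its SD. The unstranded column gave no Mir24 ratio. The cluster shares followed the denominator: 5.39% (chromosome 8) and 5.90% (chromosome 13) in the unstranded column, 4.90% and 5.36% without the top gene in the totals, and 0.687% and 0.741% of all mapped reads. Called genes numbered 156 with all mapped reads, 50 with a mean of at least 100 counts (170 tested) and 207 with no ratio threshold, against 103. Of called genes, 79.6% were higher in replicate 2, against 67.3% with TMM, 59.8% with DESeq2 size factors and 94.2% with all mapped reads; these scalings shift every log2 ratio by -0.28, -0.42 and 0.58. The log2 ratio of Mir23a turned to -0.067 in the unstranded column, -0.26 with TMM, -0.39 with DESeq2 size factors and -0.073 without the top gene; Mir27a turned to -0.043 with DESeq2 size factors. With all mapped reads Mir23b turned to 0.45 and Mir27b to 0.52, and Mir24-1 was called at 1.45. Without a ratio threshold all 6 genes were called, as were 67.9% of tested genes. Low counts limit the Mir24 genes most.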
